A study of Homo sapiens with 20 samples.

Results

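The response of U2OS cells to tunicamycin was measured as the difference between tunicamycin-treated and control cells at the same time after transcription was blocked. U2OS is an established human osteosarcoma line, and total RNA was profiled on Affymetrix arrays that read the 3' end of transcripts. The arrays were chosen by the treatment label: 8 of the 20 arrays of the series, 4 from cells given tunicamycin (2.5 ug/ml for 3 hr) and 4 from control cells given none. The remaining arrays came from U2OS cells under hypoxia (below 0.1% oxygen, 3 hr), given emetine (100 ug/ml, 3 hr) or depleted of UPF1. In every condition cells were then given DRB (100 ug/ml), an inhibitor of RNA polymerase II elongation. Samples were lysed 0 hr, 1.5 hr, 3 hr or 4.5 hr later. The array at 0 hr is from the moment of DRB addition. The labels do not say whether tunicamycin stayed on the cells during DRB, and they name no vehicle for the control cells. Each condition and time has 1 array, and separate cultures are not stated. The p-values therefore measure only the spread between these arrays, which may be technical and also holds any change of the difference with DRB time. The treatment cannot be told apart from a batch of cultures or arrays.

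Tunicamycin inhibits DPAGT1, the enzyme that starts the lipid-linked oligosaccharide of N-glycosylation, so proteins that enter the endoplasmic reticulum (ER) lack N-glycans and misfold. The unfolded protein response is run by the ER membrane sensors PERK, IRE1 and ATF6. PERK phosphorylates eIF2alpha, which lowers translation and favours the transcription factor ATF4 and its targets (the integrated stress response), IRE1 splices XBP1 mRNA and can cleave other mRNAs at the ER membrane, and ATF6 is cut in the Golgi to release a transcription factor that acts on ER chaperone genes.

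Values are deposited signals on a linear scale, made comparable between arrays by the authors. Each gene is represented by its brightest probe set over the series, and 14478 genes with a mean in the upper part of the probe sets (above the 40th percentile, signal 26.0) were tested. A log2 difference is tunicamycin minus control, averaged over the 4 pairs of arrays with the same DRB time. It is given with the standard error of limma's paired fit and with a p-value adjusted by Benjamini-Hochberg over all genes tested. A gene passed the test, or was called, at an adjusted p under 0.05. Since transcription was blocked, the difference at 0 hr reflects the level when DRB was added, and the later pairs also hold any difference in how fast a transcript was lost. Median signals of the 8 arrays ran from 38.9 to 40.4 and their pairwise Pearson correlations over probe sets from 0.952 to 0.994. Of 10 mesenchymal markers 8 lay above the filter (COL1A2 and TWIST1 did not). The log2 level summed over all 10 was 91.8 to 92.7 in tunicamycin arrays and 92.8 to 95.0 in control arrays. The part of this list in other results was not tested. Of 7 epithelial markers 4 lay above the filter (EPCAM, KRT5, KRT14 and CLDN4). All 7 together summed to 35.9 to 37.0 in tunicamycin and 36.1 to 37.8 in control arrays. Of 5 endothelial markers 3 lay above it (PECAM1, VWF and TEK), and all 5 summed to 23.3 to 24.8 and 23.5 to 24.9. Of 6 haematopoietic markers 2 lay above it (CD3E and HBB), and all 6 summed to 25.5 to 27.3 and 26.2 to 27.6. The defining PTPRC, CDH1 and CDH5 lay below the filter, and the part of these lists was likewise not tested. The 3'-over-5' log2 signal of ACTB was 0.54 ± 0.11 in tunicamycin cells and 0.55 ± 0.10 in control cells (SD, n = 4 arrays each). In bulk RNA, fewer cells of a kind and less RNA per cell cannot be told apart.

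Tunicamycin cells differed from control cells in 2300 of the 14478 genes (15.9%), of which 1275 were higher (8.81%) and 1025 lower (7.08%). The upward differences were larger: 278 called genes were at least 2-fold higher and 30 at least 2-fold lower. In 1693 genes (11.7%) the 4 tunicamycin arrays and the 4 control arrays did not overlap, 839 higher (5.79%) and 854 lower (5.90%). Among the called genes, 651 of the higher and 556 of the lower had groups that did not overlap. The number of calls depended on single pairs. It was 96 without the pair at 3 hr (78 higher, 18 lower), 282 without that at 1.5 hr and 555 without that at 4.5 hr. With each pair left out in turn, 76 higher genes (0.525% of those tested) and 18 lower genes (0.124%) passed every time. The median log2 difference over all genes was -0.02.

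HSPA5 (BiP), the main Hsp70 chaperone of the ER, was higher by nearly the same amount at every DRB time. Its signal was 15327, 14486, 14846 and 13690.4 in tunicamycin cells, against 3975, 3846, 4096 and 3671 in control cells, from 0 to 4.5 hr, and every tunicamycin array lay above every control array. The log2 difference was 1.90 ± 0.07, adjusted p = 0.000223, a 3.74-fold higher level. DNAJC3 (p58IPK), an ER co-chaperone, read 1412, 1567, 1692 and 1643 in tunicamycin cells, against 451, 463, 498 and 406 in control cells (1.80 ± 0.09, adjusted p = 0.000432). SDF2L1, a cofactor of HSPA5, read 3691, 3759, 3642 and 3806 in tunicamycin cells, against 1487, 1163, 1234 and 1097 in control cells (1.59 ± 0.10, adjusted p = 0.00106). For these 3 genes the tunicamycin and control signals did not overlap. Of the list of ER chaperones and folding enzymes, 12 of 36 tested members passed upward and 3 downward (33.3% and 8.33%, against 8.81% and 7.08% of all genes), with a median log2 difference of 0.07. With 1 pair left out the list had 9 to 11 members higher and 0 to 4 lower. The calls of HSPA5, DNAJC3 and SDF2L1 held when each pair was left out in turn.

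HERPUD1, an ER membrane protein of the degradation machinery, showed a larger difference. Signals of HERPUD1 were 13050.3, 11053, 9553 and 8208 in tunicamycin cells, against 1664, 1291, 782 and 609 in control cells, a 10.3-fold difference (3.36 ± 0.14, adjusted p = 0.000263). The groups were far apart, with the lowest tunicamycin array well above the highest control array. SEL1L, the partner of the ubiquitin ligase HRD1, was higher by 0.94 ± 0.08, adjusted p = 0.00245, and DERL2, a derlin of the export channel, by 0.80 ± 0.10, adjusted p = 0.00732. In the ER-associated degradation list 5 of 28 tested members passed upward (17.9%) and 0 downward (4 with an unadjusted p under 0.05, median 0.05). With 1 pair left out, 2 to 6 passed upward and 0 to 3 downward. The other probe set of HERPUD1 above the filter differed by 0.78. The calls of HERPUD1 and SEL1L held when each pair was left out in turn. The test was no longer passed by DERL2 without the pair at 3 hr (adjusted p up to 0.0598).

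Promoters of HSPA5, SDF2L1, HERPUD1 and XBP1 hold the letters of known ER stress elements. The windows run from 250 bases before to 50 after the annotated start (RefSeq, GRCh38.p14), and motifs were searched on both strands as exact letters. ERSE (CCAAT and CCACG separated by 9 bases) occurred in 0.0806% of 27305 promoters and ERSE-II (ATTGG and CCACG separated by 1 base) in 0.0549%. CARE (TGATGCAA), the element bound by ATF4 with C/EBP proteins, occurred in 0.923%. ERSE was in 7 of 35 promoters of the chaperone list (20%) and in 8 of 1074 of all higher genes (0.745%). Of these 7 chaperone genes, CALR, CANX and SERP1 did not pass the test. ERSE was in 1 of 817 of lower genes (0.122%), against 14 of 11527 of all genes tested (0.1215%). CARE was in 6 of 19 promoters of aminoacyl-tRNA synthetases (31.6%). Of these synthetases, IARS1 and NARS1 did not pass the test and MARS1 was not tested. CARE was in 9 of 1074 promoters of higher genes (0.838%) and 4 of 817 of lower genes (0.490%), against 69 of 11527 of all genes tested (0.599%). A match describes letters in the window and is not evidence of binding. The promoters of 6 higher genes are shown 5′ to 3′ in the direction of transcription, with the matches in capitals, because their genes carry the ER and amino acid responses described here. The ERSE of HSPA5 and of XBP1 begins 66 and 52 bases before the start, and the ERSE-II of HERPUD1 and of SDF2L1 at 117 and 188. The CARE of HERPUD1, AARS1 and GOT1 begins at 176, 187 and 198. The SDF2L1 match and the 3 CARE matches read on the opposite strand. The windows lie at chr9:125241294-125241593 for HSPA5 (minus strand), chr22:28800520-28800819 for XBP1 (minus strand), chr16:56931892-56932191 for HERPUD1 (plus strand), chr22:21642052-21642351 for SDF2L1 (plus strand), chr16:70289457-70289756 for AARS1 (minus strand) and chr10:99430575-99430874 for GOT1 (minus strand).
HSPA5: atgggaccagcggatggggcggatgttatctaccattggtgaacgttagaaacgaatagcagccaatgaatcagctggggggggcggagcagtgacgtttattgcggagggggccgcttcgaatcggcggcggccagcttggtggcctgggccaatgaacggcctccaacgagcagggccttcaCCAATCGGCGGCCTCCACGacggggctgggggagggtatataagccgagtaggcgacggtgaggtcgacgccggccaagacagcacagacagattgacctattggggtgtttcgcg
XBP1: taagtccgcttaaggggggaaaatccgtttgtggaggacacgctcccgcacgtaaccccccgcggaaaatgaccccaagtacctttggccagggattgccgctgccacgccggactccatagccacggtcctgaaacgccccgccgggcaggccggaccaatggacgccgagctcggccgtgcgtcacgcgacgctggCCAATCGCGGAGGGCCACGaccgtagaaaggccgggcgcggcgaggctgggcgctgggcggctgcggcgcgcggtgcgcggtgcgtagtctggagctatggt
HERPUD1: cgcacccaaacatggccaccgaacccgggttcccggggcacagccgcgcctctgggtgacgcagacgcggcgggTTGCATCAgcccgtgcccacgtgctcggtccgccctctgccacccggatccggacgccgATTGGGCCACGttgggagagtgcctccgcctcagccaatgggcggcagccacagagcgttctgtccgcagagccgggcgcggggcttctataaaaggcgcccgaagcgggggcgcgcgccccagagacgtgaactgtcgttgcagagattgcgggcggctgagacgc
SDF2L1: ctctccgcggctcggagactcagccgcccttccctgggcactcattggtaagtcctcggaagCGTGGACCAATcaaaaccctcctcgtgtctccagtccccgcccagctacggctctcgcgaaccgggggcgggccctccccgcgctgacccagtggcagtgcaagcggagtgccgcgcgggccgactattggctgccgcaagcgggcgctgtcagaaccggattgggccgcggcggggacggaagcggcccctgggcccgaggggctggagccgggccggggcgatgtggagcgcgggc
AARS1: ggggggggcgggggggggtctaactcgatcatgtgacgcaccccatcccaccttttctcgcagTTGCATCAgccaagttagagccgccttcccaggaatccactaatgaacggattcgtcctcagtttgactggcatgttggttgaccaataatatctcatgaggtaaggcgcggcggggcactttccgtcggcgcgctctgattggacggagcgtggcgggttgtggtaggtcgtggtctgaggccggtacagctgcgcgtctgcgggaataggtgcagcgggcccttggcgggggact
GOT1: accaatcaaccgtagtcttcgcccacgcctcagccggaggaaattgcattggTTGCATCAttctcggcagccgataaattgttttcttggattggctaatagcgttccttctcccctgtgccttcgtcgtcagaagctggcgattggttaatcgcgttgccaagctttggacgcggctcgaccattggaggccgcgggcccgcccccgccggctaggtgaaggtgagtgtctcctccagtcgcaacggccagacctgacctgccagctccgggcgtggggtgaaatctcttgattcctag

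Among the sensors and factors of ER stress, the transcripts of PERK and XBP1 were higher. XBP1 read 1152, 1149, 824 and 764 in tunicamycin cells, against 440.1, 172, 41.1 and 30 in control cells. Its paired log2 differences were 1.39, 2.74, 4.33 and 4.67 from 0 to 4.5 hr, so the gap widened as the control signal dropped after DRB and the tunicamycin signal changed less. Over the 4 pairs the difference was 3.28 ± 0.51, adjusted p = 0.012. The other probe set of XBP1 above the filter differed by 0.026. Spliced and unspliced XBP1 mRNA were not told apart here. EIF2AK3, which encodes PERK, read 985, 625, 449.7 and 276 in tunicamycin cells, against 229, 198, 134 and 70.0 in control cells (1.87 ± 0.10, adjusted p = 0.000613), and PPP1R15A (GADD34), which returns the phosphatase to eIF2alpha, was higher by 1.57 ± 0.14, adjusted p = 0.00317. NFE2L2 (NRF2), a transcription factor of the antioxidant response, was higher by 1.39 ± 0.18, adjusted p = 0.00933. In the list, 5 of 17 tested members passed upward and 2 downward (29.4% and 11.8%, median -0.11). With 1 pair left out, 2 to 5 passed upward and 0 to 2 downward. DPAGT1, the target of tunicamycin, had 789.8, 646, 782 and 732 in tunicamycin cells, against 881, 748, 1034 and 886 in control cells, groups that overlapped and did not pass (-0.26 ± 0.08, adjusted p = 0.0635). The calls of EIF2AK3 and PPP1R15A held when each pair was left out in turn. No longer past the test were NFE2L2 without the pair at 3 hr, XBP1 without the pair at 1.5 or 3 hr (highest adjusted p per gene 0.0704 to 0.0851).

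**Figure D1:**
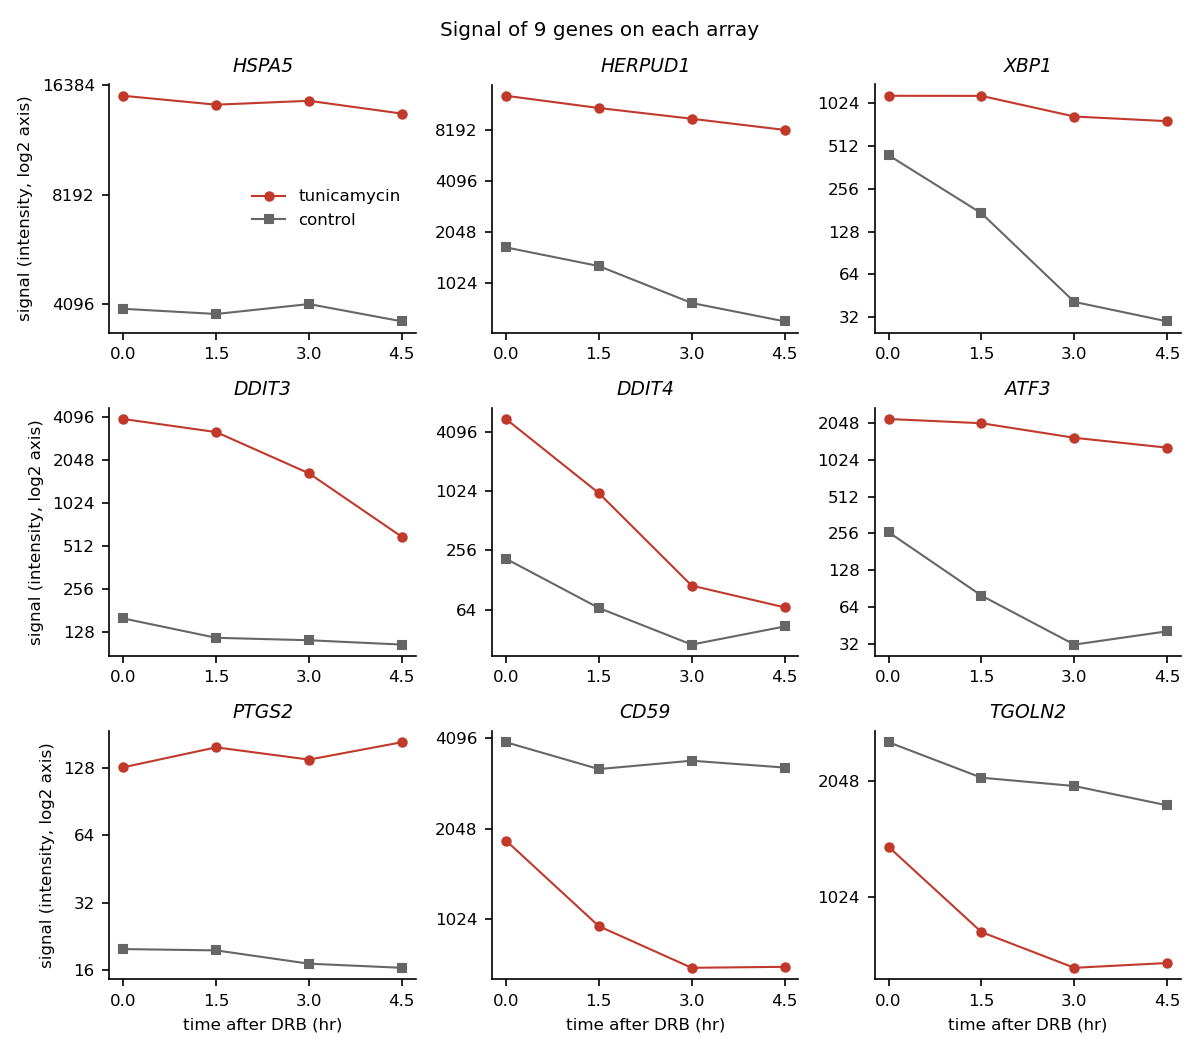
Signals (log scale) of 9 genes against DRB time (hr), with 1 point per array, tunicamycin as red circles and control as grey squares. The 2 lines of HSPA5 stay a constant distance apart, those of XBP1 spread apart and those of DDIT4 come together, while CD59 and TGOLN2 lie lower in tunicamycin cells at all 4 times.

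The integrated stress response list had the highest median of the 33 lists examined, 0.84, and 14 of 27 tested members passed upward and 1 downward (51.9% and 3.70%). With 1 pair left out, 5 to 14 members passed upward. ATF3, a stress-induced factor of the ATF/CREB family, read 2215, 2046, 1554 and 1289.9 in tunicamycin cells, against 262, 79.2, 31.5 and 40.4 in control cells. All tunicamycin arrays lay above all control arrays, with a log2 difference of 4.60 ± 0.37, adjusted p = 0.00211 (24.2-fold). DDIT3 (CHOP), a factor linked to cell death under ER stress, read 3994, 3234, 1662 and 597 in tunicamycin cells, against 159.8, 117, 112 and 105 in control cells (3.96 ± 0.35, adjusted p = 0.0031). The mRNA of ATF4 itself, which is controlled mainly in translation, did not pass. ATF4 read 10247, 9996, 8861 and 8166 in tunicamycin cells, against 9346, 8648, 7424 and 7150.2 in control cells, with overlap (0.20 ± 0.07, adjusted p = 0.105). NUPR1, a small stress-induced chromatin protein, was higher by 1.18 ± 0.08, adjusted p = 0.00133, and CCNB1IP1, a ubiquitin ligase, by 0.90 ± 0.07, adjusted p = 0.00245. 2 other probe sets of ATF3 above the filter differed by 0.22 to 2.54. The calls of ATF3, DDIT3, NUPR1 and CCNB1IP1 held when each pair was left out in turn.

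The differences of DDIT4, SESN2 and CHAC1 shrank while transcription was blocked. DDIT4 (REDD1), an inhibitor of mTORC1, read 5517, 976, 112 and 67.6 in tunicamycin cells, against 210.4, 66.6, 28.3 and 43.2 in control cells. Its tunicamycin signal was far above control at 0 hr and close to it at 4.5 hr, and the paired differences were 4.71, 3.87, 1.99 and 0.65 (mean 2.81 ± 0.61, adjusted p = 0.0287). SESN2, a sestrin that restrains mTORC1 in amino acid shortage, gave 3.69, 3.59, 1.59 and 1.20 (mean 2.52 ± 0.44, adjusted p = 0.0163). CHAC1, which breaks down glutathione, read 916, 196, 62.8 and 43.6 in tunicamycin cells, against 97.2, 56.3, 53.5 and 62.9 in control cells, and its differences of 3.24, 1.80, 0.23 and -0.53 averaged 1.18 ± 0.56, which did not pass (adjusted p = 0.197). The mean thus understates the level difference at DRB addition for DDIT4, SESN2 and CHAC1. SESN2 and CHAC1 were named after their values were seen. Calls were lost for DDIT4 and SESN2 without the pair at 1.5 or 3 hr (highest adjusted p per gene 0.0736 to 0.111).

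CTH, the enzyme that makes cysteine from cystathionine, led the list of amino acid and one-carbon synthesis. It read 343, 305, 295 and 401 in tunicamycin cells, against 75.9, 101, 69.2 and 80.5 in control cells (2.04 ± 0.12, adjusted p = 0.00106, 4.12-fold). ASNS, asparagine synthetase, was higher by 0.80 ± 0.07, adjusted p = 0.0031, and GOT1, a cytosolic aspartate aminotransferase, by 0.83 ± 0.09, adjusted p = 0.00584. In this list 7 of 20 tested members passed upward and 0 downward (1 with an unadjusted p under 0.05; 35%; median 0.16; 2 to 6 higher with 1 pair left out). Among aminoacyl-tRNA synthetases, which charge tRNAs, 5 of 18 tested members passed upward and 0 downward (1 with an unadjusted p under 0.05; 27.8%; median 0.14; 0 to 3 with 1 pair left out). AARS1, for alanine, read 1509.5, 1397, 1337 and 1366 in tunicamycin cells, against 1099.7, 1003, 979 and 988 in control cells, without overlap (0.46 ± 0.07, adjusted p = 0.0112). CARS1, for cysteine, differed by 0.60 ± 0.08, adjusted p = 0.0085, and SARS1, for serine, by 0.44 ± 0.07, adjusted p = 0.0156. Of amino acid transporters, 2 of 19 tested members passed upward and 2 downward (10.5% each, against 8.81% and 7.08% of all genes). The cystine importer SLC7A11 was higher (0.64 ± 0.08, adjusted p = 0.00914). SLC38A10 (-0.61 ± 0.13, adjusted p = 0.0294) and SLC36A1 (-0.44 ± 0.10, adjusted p = 0.0334) were lower. Of 4 other probe sets of SLC38A10, 1 gave the opposite sign, and the other probe set of SLC36A1 above the filter differed by -0.11. With 1 pair left out, 0 to 2 transporters passed upward and 0 to 3 downward. The calls of CTH and ASNS held when each pair was left out in turn. Adjusted p exceeded the threshold for SLC7A11 without the pair at 1.5 hr, for GOT1 and CARS1 without the pair at 3 hr, for AARS1 without the pair at 1.5 or 3 hr, for SARS1, SLC38A10 and SLC36A1 without the pair at 1.5, 3 or 4.5 hr (highest adjusted p per gene 0.0517 to 0.149).

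**Figure D2:**
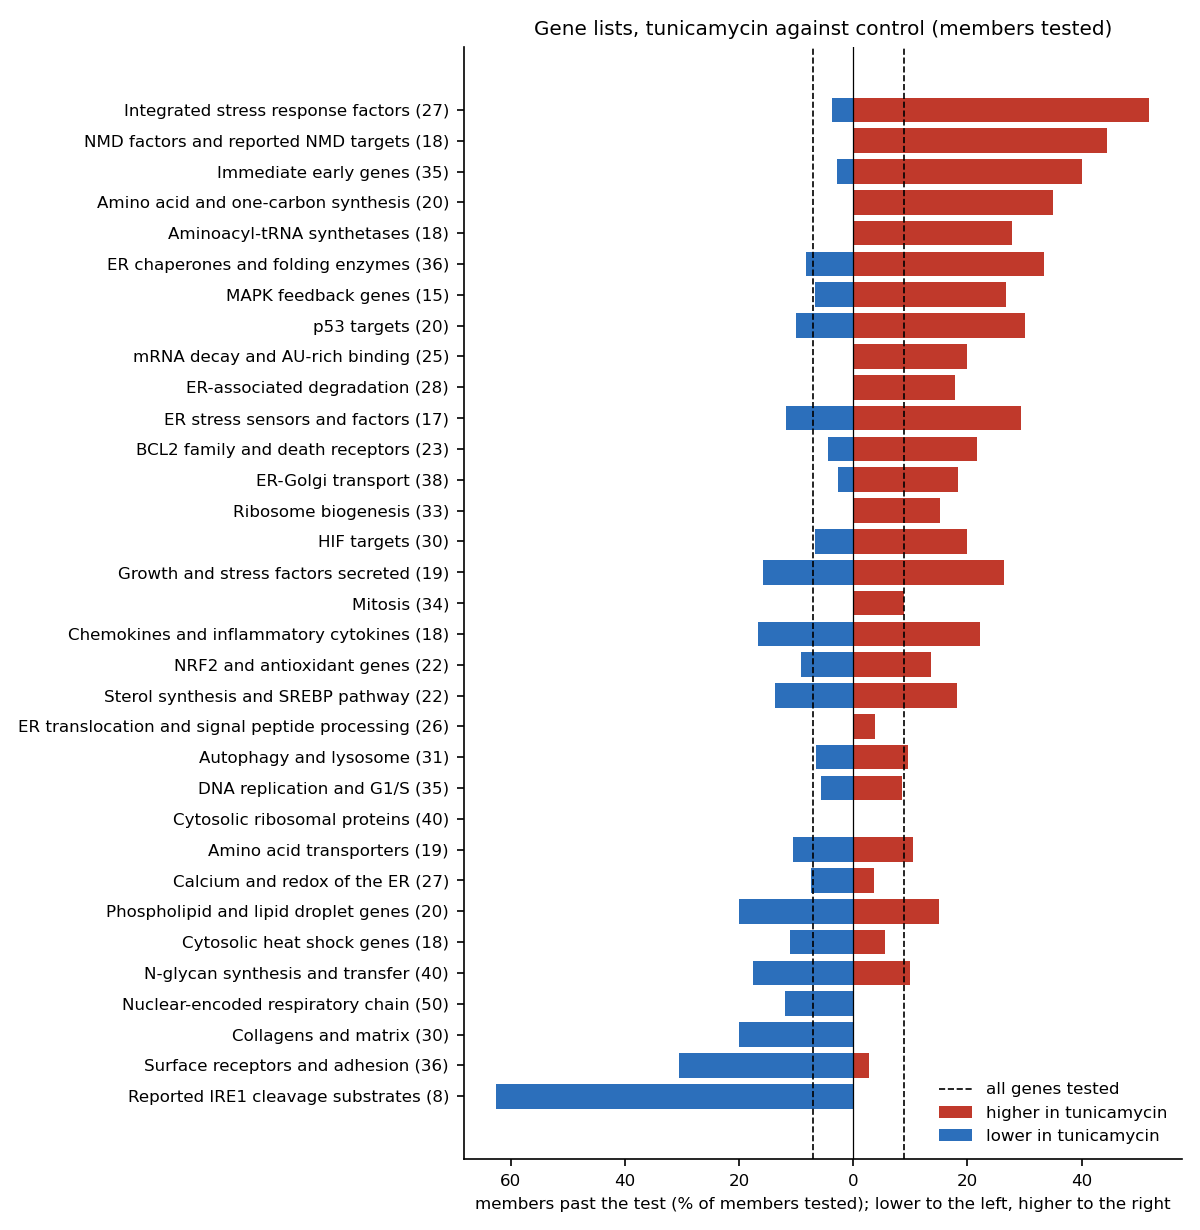
Share of tested members (%) that passed the test upward (red, to the right) and downward (blue, to the left) in each of the 33 gene lists, with vertical lines at the shares of all genes tested (8.81% and 7.08%). The integrated stress response, NMD and immediate early lists have the longest upward bars, and the IRE1 substrate and surface receptor lists the longest downward bars.

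Outside the ER pathways, PTGS2, CXCL8 and TSLP were among the highest genes. PTGS2 (cyclooxygenase-2), which makes prostaglandin precursors, read 129, 158, 139 and 166 in tunicamycin cells, against 19.8, 19.6, 17.1 and 16.4 in control cells. The groups did not overlap (3.02 ± 0.11, adjusted p = 0.000223), but all 4 control signals lay under the filter, so the size of the difference is uncertain. CXCL8 (interleukin-8), a neutrophil chemokine, read 1513, 1544, 1400.5 and 1741 in tunicamycin cells, against 419, 301, 257 and 257 in control cells (2.35 ± 0.14, adjusted p = 0.00106), and TSLP, an epithelial cytokine, 195, 157, 145 and 233 in tunicamycin cells, against 29.5, 27.8, 21.8 and 15.4 in control cells (2.97 ± 0.22, adjusted p = 0.00182). Only 2 of the 4 control arrays of TSLP were above the filter. CCL2, a monocyte chemokine, ran the other way, with 338, 353, 310.1 and 384 in tunicamycin cells, against 795, 672, 659.5 and 670.1 in control cells (-1.01 ± 0.09, adjusted p = 0.00317), again without overlap. In the list of chemokines and inflammatory cytokines 4 of 18 tested members passed upward and 3 downward (22.2% and 16.7%, median 0.08). With 1 pair left out, 2 to 7 passed upward and 1 to 3 downward. The NF-kB letters GGGAC followed by TTTCC stood in few promoters. Only these exact letters were searched, so any other form of the site was not counted, and the part of NF-kB was not tested. The letters were in 4 of 1074 of higher genes (0.372%), 2 of 817 of lower genes (0.245%) and 24 of 11527 of all genes tested (0.208%). In the chemokine and cytokine list 1 of 21 promoters held them. Among the genes of all lists only EDC4 and TNFAIP3 had this match, and neither passed the test. The calls of PTGS2, CXCL8, TSLP and CCL2 held when each pair was left out in turn.

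Among other secreted factors, VEGFA, the main angiogenic factor, read 1665, 1038, 678 and 513 in tunicamycin cells, against 781, 421, 385 and 232 in control cells (1.09 ± 0.10, adjusted p = 0.0031). Each tunicamycin array exceeded the control array of its own time, although the groups overlapped across times. CCN2, a matricellular protein, was higher by 0.57 ± 0.08, adjusted p = 0.0106, and BMP4, a bone morphogenetic protein, had a log2 difference of -0.91 ± 0.09, adjusted p = 0.00391. SPX (spexin), a peptide hormone, read 243, 241, 278 and 417 in tunicamycin cells, against 34.1, 51.0, 45.0 and 62.2 in control cells (2.61 ± 0.11, adjusted p = 0.000263), with no overlap and a similar difference at every time. The list of secreted growth and stress factors had 5 of 19 members higher and 3 lower (26.3% and 15.8%, median 0.17). With 1 pair left out, 1 to 5 were higher and 1 to 4 lower. 3 other probe sets of VEGFA above the filter differed by 0.24 to 0.42, and the other probe set of SPX by 1.25. The calls of VEGFA, BMP4 and SPX held when each pair was left out in turn. Past the test no more were CCN2 without the pair at 1.5 or 3 hr (adjusted p up to 0.0736).

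TIFA, an adaptor of TRAF6, had a small difference at 0 hr and larger ones later (0.64, 1.48, 4.05 and 4.22; mean 2.60 ± 0.60, adjusted p = 0.0335). PHLDA1, a pleckstrin homology-like protein, read 1074, 606, 417 and 354 in tunicamycin cells, against 218, 77.7, 40 and 45.4 in control cells (2.90 ± 0.16, adjusted p = 0.000853), and TSC22D3 (GILZ), a leucine zipper protein known for its induction by glucocorticoids, 363, 412, 462 and 496 in tunicamycin cells, against 82.8, 76.2, 44.5 and 89.3 in control cells (2.60 ± 0.19, adjusted p = 0.00174). Both had groups that did not overlap. NFIL3, a bZIP repressor, was higher by 2.88 ± 0.28, adjusted p = 0.00391, and the zinc finger gene ZNF165 by 2.42 ± 0.20, adjusted p = 0.00248. MIS12, a kinetochore subunit, differed by 2.21 ± 0.24, adjusted p = 0.00578, AUNIP, a partner of Aurora A, by 2.20 ± 0.43, adjusted p = 0.0216, TCIM by 2.35 ± 0.23, adjusted p = 0.00391, and LRATD2 by 2.14 ± 0.22, adjusted p = 0.00442. All 4 control arrays of ZNF165 and TCIM and 1 of NFIL3 were under the filter. The other probe set of TIFA above the filter differed by 0.64, 4 other probe sets of PHLDA1 above the filter differed by 0.26 to 2.67, the other probe set of TSC22D3 above the filter differed by 0.72 and the other probe set of LRATD2 above the filter differed by 0.10. The calls of PHLDA1, TSC22D3 and ZNF165 held when each pair was left out in turn. The test was no longer passed by NFIL3, MIS12, TCIM and LRATD2 without the pair at 3 hr, by TIFA and AUNIP without the pair at 1.5, 3 or 4.5 hr (highest adjusted p per gene 0.0538 to 0.157).

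In the list of immediate early genes 14 of 35 tested members passed upward and 1 downward (40%; median 0.54; 3 to 16 higher with 1 pair left out). BTG1, an antiproliferative partner of the CCR4-NOT deadenylase, read 618, 371, 232 and 146 in tunicamycin cells, against 208, 127, 48.4 and 25.8 in control cells (1.97 ± 0.17, adjusted p = 0.0031). In each pair tunicamycin was higher, but the signals of both groups dropped with DRB time and overlapped across times. DUSP5, a nuclear ERK phosphatase, was higher by 1.09 ± 0.09, adjusted p = 0.00273. EGR1, a zinc finger factor named after its values were seen, had differences of 2.68, 2.89, 1.13 and 1.0 (mean 1.92 ± 0.34, adjusted p = 0.0169). Of MAPK feedback genes, 4 of 15 tested members passed upward and 1 downward (26.7% and 6.67%, median 0.36, 1 to 4 without 1 pair). These included ERRFI1 (MIG6), an inhibitor of the EGF receptor (2.18 ± 0.31, adjusted p = 0.0101), and DUSP16, a phosphatase of JNK and p38 (0.67 ± 0.10, adjusted p = 0.0122). Of the list of mRNA decay and AU-rich element binding, 5 of 25 tested members passed upward (20%) and 0 downward. Of those below 0, 1 had an unadjusted p under 0.05, and the median of the list was 0.16. With 1 pair left out, 1 to 7 passed upward and 0 to 1 downward. TOB2, another CCR4-NOT partner, was higher by 0.87 ± 0.13, adjusted p = 0.0107, and ZFP36L1, which binds AU-rich elements, by 0.68 ± 0.10, adjusted p = 0.0103. 2 other probe sets of TOB2 above the filter differed by 0.024 to 0.41, and 2 of DUSP16 by 0.24 to 0.98. The calls of BTG1 and DUSP5 held when each pair was left out in turn. No longer past the test were EGR1, ERRFI1, TOB2 and ZFP36L1 without the pair at 1.5 or 3 hr, DUSP16 without the pair at 1.5, 3 or 4.5 hr (highest adjusted p per gene 0.0594 to 0.0738).

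The list of nonsense-mediated decay (NMD) factors and reported NMD targets had 8 of 18 members higher (44.4%) and none lower (1 with an unadjusted p under 0.05). The median of the list was 0.40, and 3 to 8 members were higher with 1 pair left out. It shares ATF3, DDIT3 and ATF4 with the integrated stress response list and CARS1 with the synthetases. UPP1, uridine phosphorylase and a reported NMD target, read 2486, 2605, 2687 and 2993 in tunicamycin cells, against 1325, 1298, 1419.5 and 1447 in control cells. Its groups did not overlap (0.97 ± 0.07, adjusted p = 0.00175) and the 4 differences were nearly equal (0.91, 1.01, 0.92 and 1.05). The call of UPP1 held when each pair was left out in turn.

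Genes of cell death and p53 signalling passed the test more often upward than downward. PMAIP1 (NOXA), a BH3-only protein, read 3393, 3317, 3207 and 3164 in tunicamycin cells, against 1838, 1323, 777 and 1062 in control cells (1.46 ± 0.17, adjusted p = 0.00701), without overlap. MCL1, which NOXA binds, was higher by 0.74 ± 0.09, adjusted p = 0.00647, and the inhibitor of apoptosis BIRC2 by 0.66 ± 0.08, adjusted p = 0.00748. Of the BCL2 family and death receptor list, 5 of 23 tested members passed upward and 1 downward (21.7% and 4.35%, median 0.04). Of p53 targets, 6 of 20 tested members passed upward and 2 downward (30% and 10%, median 0.12). Over all genes the shares were 8.81% upward and 7.08% downward, so the downward counts of both lists lay near the share of all genes. AEN, an apoptosis-enhancing nuclease, was higher (1.04 ± 0.15, adjusted p = 0.0101) and ZMAT3, an RNA-binding zinc finger protein, lower (-0.77 ± 0.09, adjusted p = 0.00594). With 1 pair left out the upward counts were 1 to 5 and 1 to 6. 4 other probe sets of MCL1 above the filter differed by 0.29 to 0.98. The call of PMAIP1 held when each pair was left out in turn. Calls were lost for MCL1, BIRC2 and ZMAT3 without the pair at 3 hr, for AEN without the pair at 1.5 or 3 hr (highest adjusted p per gene 0.0565 to 0.072).

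Genes of the secretory route did not move as one. For transport between ER and Golgi, 7 of 38 tested members passed upward and 1 downward (18.4% and 2.63%, median 0.06). The SNARE BET1 (0.93 ± 0.10, adjusted p = 0.00582) and the COPII coat subunit SEC24D (0.98 ± 0.16, adjusted p = 0.0143) were higher. The KDEL receptor KDELR3 was lower (-0.51 ± 0.08, adjusted p = 0.0125). Of N-glycan synthesis and transfer, the process that tunicamycin blocks, 4 of 40 tested members passed upward and 7 downward (10% and 17.5%, median -0.17). ALG2, a mannosyltransferase, was higher (0.74 ± 0.09, adjusted p = 0.00668). ALG1, which adds the first mannose (-0.53 ± 0.09, adjusted p = 0.0154), and DAD1, a subunit of the oligosaccharyltransferase (-0.48 ± 0.07, adjusted p = 0.0123), were lower. DAD1 read 3144, 3358, 3339 and 3634 in tunicamycin cells, against 4429, 4374, 5025 and 4935 in control cells, without overlap. In translocation and signal peptide processing 1 of 26 tested members passed upward (3.85%) and 0 downward (4 with an unadjusted p under 0.05, median -0.06). The higher member was the signal recognition particle subunit SRP19 (0.74 ± 0.15, adjusted p = 0.0251). In calcium handling and redox of the ER 1 of 27 tested members passed upward and 2 downward (3.70% and 7.41%, median -0.22). Over all genes 8.81% passed upward and 7.08% downward. The 10% of N-glycan genes upward and the 7.41% of calcium and redox genes downward lay near those shares. SELENOK, an ER selenoprotein, was higher (0.56 ± 0.08, adjusted p = 0.011). The peroxidases GPX7 (-0.32 ± 0.08, adjusted p = 0.0368) and PRDX4 (-0.27 ± 0.07, adjusted p = 0.0452) were lower. Upward and downward counts with 1 pair left out were 0 to 5 and 0 to 1 for transport, 0 to 4 and 0 to 8 for N-glycans, 0 to 1 and 0 to 1 for translocation and 0 to 1 and 0 to 2 for calcium and redox. The other probe set of ALG2 above the filter differed by 0.12. Adjusted p exceeded the threshold for BET1 and ALG2 without the pair at 3 hr, for ALG1, DAD1 and SELENOK without the pair at 1.5 or 3 hr, for SEC24D without the pair at 3 or 4.5 hr, for KDELR3 and SRP19 without the pair at 1.5, 3 or 4.5 hr, for GPX7 and PRDX4 without the pair at 0, 1.5, 3 or 4.5 hr (highest adjusted p per gene 0.0565 to 0.162).

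**Figure D3:**
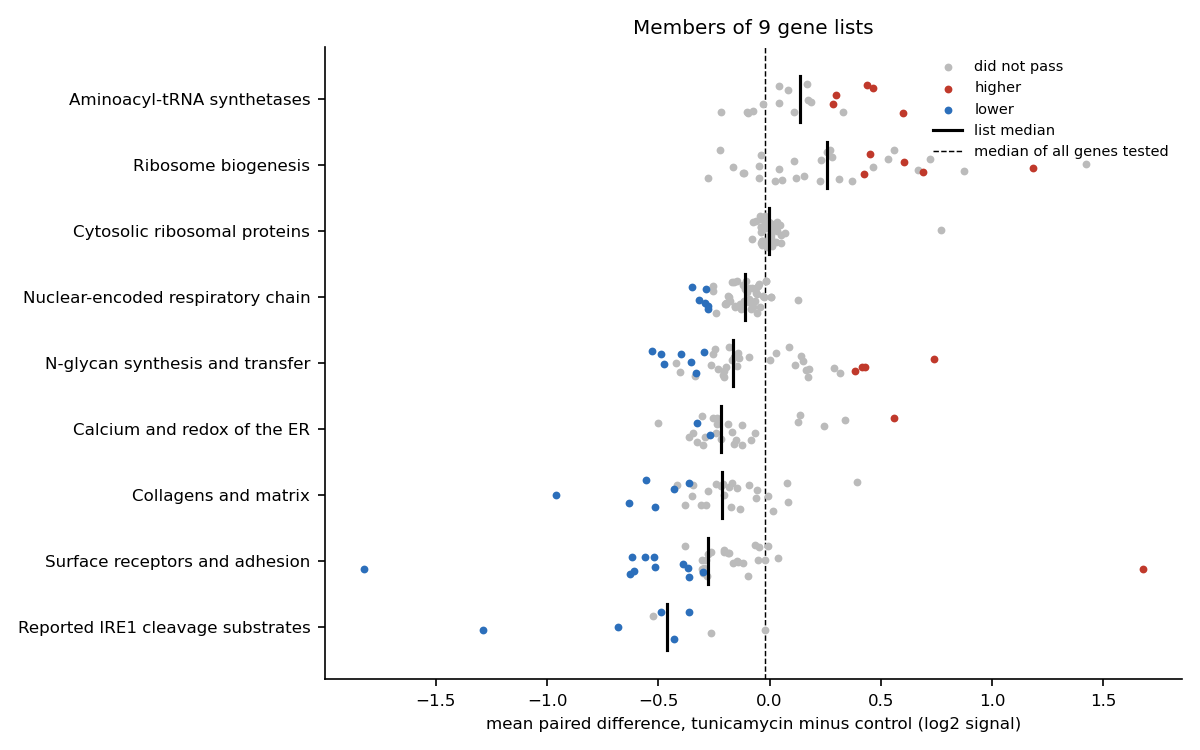
Mean paired log2 difference (horizontal) of each tested member of 9 gene lists (rows), with 1 point per gene, red or blue where it passed the test higher or lower and grey where it did not, the list's median as a bar and the median of all genes as a dashed line. Nearly all points of the IRE1 substrate, surface receptor and respiratory chain lists lie left of 0. Most of those of the ribosomal proteins lie close to 0, with RPLP2 at 0.77.

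Lipid genes split as well. Of sterol synthesis and the SREBP pathway, 4 of 22 tested members passed upward and 3 downward (18.2% and 13.6%, median -0.03). STARD4, a sterol carrier, read 1183, 1515, 1423 and 1424 in tunicamycin cells, against 492, 610.5, 561 and 633 in control cells (1.27 ± 0.07, adjusted p = 0.000883), without overlap. HMGCS1, an early enzyme of cholesterol synthesis, was higher (0.95 ± 0.09, adjusted p = 0.00364) and INSIG1, which retains SREBP in the ER, lower (-0.81 ± 0.15, adjusted p = 0.0185). Of phospholipid and lipid droplet genes, 3 of 20 tested members passed upward and 4 downward (15% and 20%, median -0.17). The phosphatidate phosphatase LPIN1 (0.82 ± 0.11, adjusted p = 0.00975) and the lipid droplet coat protein PLIN2 (0.53 ± 0.11, adjusted p = 0.0237) were higher, and the desaturase SCD (-0.48 ± 0.10, adjusted p = 0.0222) was lower. When 1 pair was left out, 2 to 6 sterol genes passed upward and 0 to 2 downward, and 0 to 3 and 0 to 4 phospholipid genes did. The other probe set of HMGCS1 above the filter differed by 0.25, and 2 other probe sets of LPIN1 by 0.26 to 0.94. The calls of STARD4 and HMGCS1 held when each pair was left out in turn. Past the test no more were LPIN1 without the pair at 1.5 or 3 hr, INSIG1, PLIN2 and SCD without the pair at 1.5, 3 or 4.5 hr (highest adjusted p per gene 0.0732 to 0.121).

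SLC40A1 (ferroportin), the iron exporter, had the lowest mean difference among genes past the test with 1 sign in all 4 pairs. Its signal was 103, 63.9, 27.9 and 28.7 in tunicamycin cells, against 183, 235, 161 and 169.7 in control cells (-1.95 ± 0.28, adjusted p = 0.0103, 25.8% of control). CD59, a membrane-anchored inhibitor of complement, read 1871, 972, 707 and 713 in tunicamycin cells, against 3965, 3229, 3443 and 3268 in control cells (-1.82 ± 0.19, adjusted p = 0.00556, 28.2% of control). In both, every tunicamycin array was below every control array and the difference was smallest at 0 hr. TGOLN2 (TGN46), a trans-Golgi protein and a reported IRE1 substrate, read 1379.9, 829.8, 671 and 690.0 in tunicamycin cells, against 2576, 2085, 1984 and 1768 in control cells (-1.29 ± 0.11, adjusted p = 0.0031). ENG (endoglin), a coreceptor of the TGF-beta family, read 84.7, 73.2, 67.0 and 75.1 in tunicamycin cells, against 187, 150.1, 186 and 144 in control cells (-1.15 ± 0.10, adjusted p = 0.00316). Groups did not overlap for either gene. TGFBR3 (betaglycan), another TGF-beta coreceptor, had a log2 difference of -1.13 ± 0.17, adjusted p = 0.0118, and the protocadherin PCDH7 one of -1.12 ± 0.09, adjusted p = 0.00229. The other probe set of SLC40A1 above the filter differed by -0.27, 4 other probe sets of CD59 above the filter differed by -2.02 to -0.54 and the other probe set of ENG above the filter differed by -0.19. The calls of TGOLN2, ENG and PCDH7 held when each pair was left out in turn. The test was no longer passed by CD59 and TGFBR3 without the pair at 3 hr, by SLC40A1 without the pair at 1.5 or 3 hr (highest adjusted p per gene 0.056 to 0.0738).

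TMEM165, a Golgi protein needed for manganese supply to glycosyltransferases, read 835, 383, 248 and 204 in tunicamycin cells, against 1929.6, 929, 506 and 519.6 in control cells (-1.22 ± 0.08, adjusted p = 0.00133). C1GALT1C1 (COSMC), the chaperone of the enzyme that extends O-glycans, read 388, 286, 199.5 and 153 in tunicamycin cells, against 630.1, 583, 592 and 586 in control cells (-1.31 ± 0.19, adjusted p = 0.0113). The groups overlapped for TMEM165, whose pairs differed evenly, and did not overlap for C1GALT1C1. B3GNT5, which starts lacto-series glycolipids, had a log2 difference of -1.33 ± 0.18, adjusted p = 0.00975. 2 other probe sets of TMEM165 above the filter differed by -1.30 to -0.014, and the other probe set of B3GNT5 above the filter differed by -0.24. The call of TMEM165 held when each pair was left out in turn. No longer past the test were B3GNT5 without the pair at 3 hr, C1GALT1C1 without the pair at 1.5 or 3 hr (highest adjusted p per gene 0.072 to 0.0815).

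Of the other lowest genes, ODAPH, a phosphoprotein of enamel, had a similar difference in every pair: it read 34.1, 38.1, 25.9 and 26.0 in tunicamycin cells, against 115, 107, 67.3 and 80.1 in control cells (-1.56 ± 0.09, adjusted p = 0.000853), with 2 tunicamycin arrays under the filter. FITM2, an ER protein of lipid droplet formation, had a log2 difference of -1.29 ± 0.10, adjusted p = 0.00207, LPCAT1, a lysophosphatidylcholine acyltransferase, one of -1.15 ± 0.20, adjusted p = 0.0173, and RNF145, an ER ubiquitin ligase, one of -1.14 ± 0.16, adjusted p = 0.0098. P3H4, an ER protein of collagen modification, differed by -1.26 ± 0.14, adjusted p = 0.00641, and the transcriptional coactivator PPARGC1B by -1.19 ± 0.17, adjusted p = 0.0104. SNN, CRISPLD1, FJX1, FAM217B and TMEM19 had mean differences from -1.62 to -1.26. 3 other probe sets of PPARGC1B above the filter differed by -0.61 to -0.14, and 2 of TMEM19 by -1.18 to -0.56. The other probe set of SNN above the filter differed by -0.42 and that of RNF145 by -0.37. The calls of ODAPH, FITM2 and TMEM19 held when each pair was left out in turn. Calls were lost for P3H4 and PPARGC1B without the pair at 3 hr, for RNF145, SNN, CRISPLD1 and FAM217B without the pair at 1.5 or 3 hr, for LPCAT1 and FJX1 without the pair at 1.5, 3 or 4.5 hr (highest adjusted p per gene 0.0565 to 0.14).

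**Figure D4:**
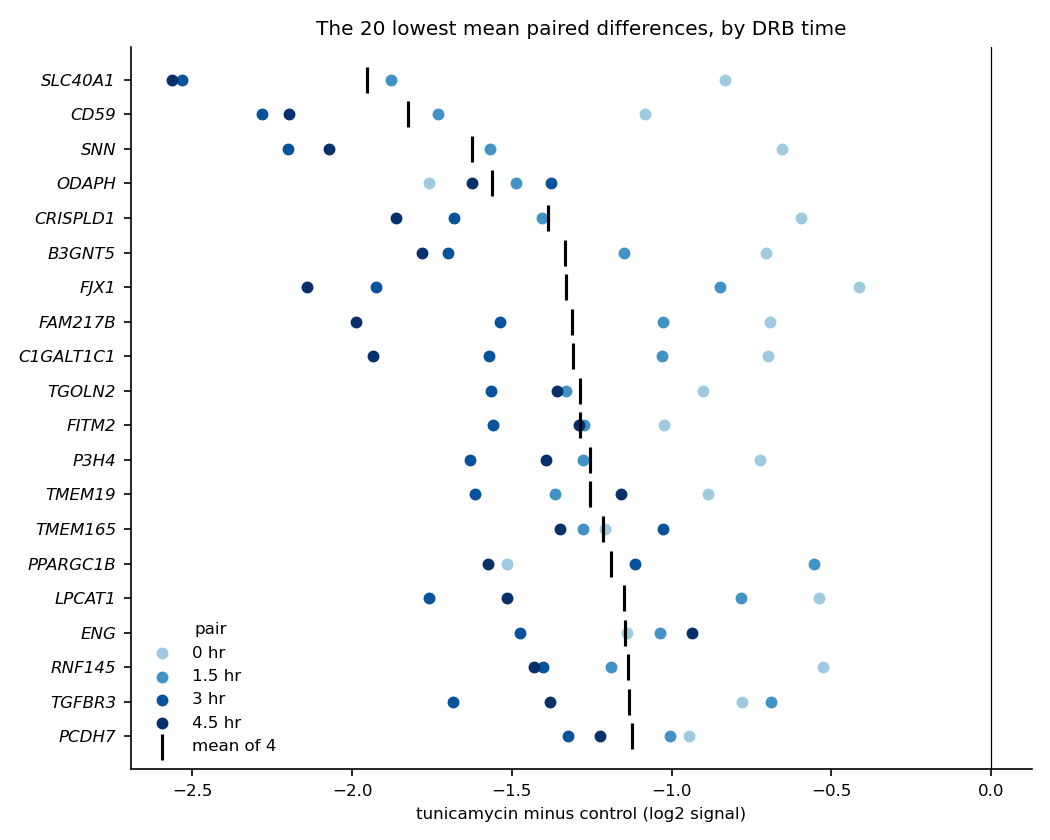
Paired log2 differences (tunicamycin minus control) of the 20 genes with the lowest means, with 1 point per DRB time and the mean as a bar. The smallest difference is at 0 hr in all but ODAPH, TMEM165, ENG, PPARGC1B and TGFBR3.

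Of 8 tested genes reported as IRE1 cleavage substrates, 5 passed downward and none upward (0 at an unadjusted p under 0.05; 62.5%, against 7.08% of all genes), and 8 had a difference below 0 (median -0.46). BLOC1S1, the substrate used as a standard readout of IRE1 cleavage, read 491, 424, 399 and 426 in tunicamycin cells, against 607, 626, 751 and 816 in control cells. Its groups did not overlap, and the difference (-0.30, -0.56, -0.91 and -0.94, mean -0.68 ± 0.12, adjusted p = 0.0174) was smallest at 0 hr. SPARC, a matrix protein of bone, had a log2 difference of -0.36 ± 0.09, adjusted p = 0.0398. The list had 1 to 4 members lower with 1 pair left out. Adjusted p exceeded the threshold for BLOC1S1 and SPARC without the pair at 1.5, 3 or 4.5 hr (highest adjusted p per gene 0.101 to 0.165).

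Surface receptors and adhesion proteins had 11 of 36 members lower (30.6%) and 1 higher, with 34 below 0 (median -0.28), against 54.4% below 0 over all genes. BMPR2, a bone morphogenetic protein receptor (-0.62 ± 0.10, adjusted p = 0.0124), and CDH11, the osteoblast cadherin (-0.63 ± 0.11, adjusted p = 0.0179), were lower. Of 5 other probe sets of BMPR2, 1 gave the opposite sign, and the other probe set of CDH11 above the filter differed by -0.31. The 1 member that rose was the Notch ligand JAG1, which read 1416, 1392, 1591 and 1388 in tunicamycin cells, against 840.0, 647, 366 and 209 in control cells (1.68 ± 0.31, adjusted p = 0.0185) and was named after its values were seen. Of collagens and matrix genes, 6 of 30 were lower (20%) and none higher (1 with an unadjusted p under 0.05), with 26 below 0 (median -0.22). COL4A1, a basement membrane collagen, read 2106, 1386, 1305 and 1259.6 in tunicamycin cells, against 2894, 2693, 3199.8 and 2755 in control cells (-0.96 ± 0.14, adjusted p = 0.0105), and no arrays overlapped. LAMC1, a laminin chain, had a log2 difference of -0.63 ± 0.13, adjusted p = 0.0225, and TIMP3, a metalloproteinase inhibitor, one of -0.52 ± 0.10, adjusted p = 0.0185. With 1 pair left out, 0 to 12 surface and 0 to 13 matrix members passed downward. 4 other probe sets of JAG1 above the filter differed by 0.15 to 1.88. Past the test no more were JAG1 and COL4A1 without the pair at 1.5 or 3 hr, BMPR2, CDH11, LAMC1 and TIMP3 without the pair at 1.5, 3 or 4.5 hr (highest adjusted p per gene 0.072 to 0.116).

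Cytosolic ribosomal proteins as a group and GAPDH moved little. Of 40 tested cytosolic ribosomal proteins none passed limma's test (0 higher and 0 lower at an unadjusted p under 0.05), with a median of -0.00256. The highest was RPLP2, at 0.77 (adjusted p = 0.239). GAPDH differed by 0.01 ± 0.07. Nuclear-encoded respiratory chain genes had small but mostly negative differences. Of 50 genes, 47 were below 0 (median -0.11), 6 passed downward (12%) and none upward (0 at an unadjusted p under 0.05). Among them were ATP5MC1 (-0.35 ± 0.07, adjusted p = 0.0276), NDUFB1 (-0.32 ± 0.07, adjusted p = 0.0353) and SDHC (-0.29 ± 0.07, adjusted p = 0.0364), and 0 to 2 passed with 1 pair left out. Ribosome biogenesis genes ran the other way, with 5 of 33 higher (15.2%) and none lower (2 at an unadjusted p under 0.05). Their median was 0.26, and 0 to 14 were higher with 1 pair left out. The nucleolar proteins NOC3L (0.61 ± 0.13, adjusted p = 0.0281), NOP2 (0.69 ± 0.15, adjusted p = 0.0301) and GTPBP4 (0.45 ± 0.11, adjusted p = 0.0393) had the largest moderated statistics among them, and 1 of 2 other probe sets of GTPBP4 gave the opposite sign. The test was no longer passed by ATP5MC1, NDUFB1, NOC3L, NOP2 and GTPBP4 without the pair at 1.5, 3 or 4.5 hr, by SDHC without the pair at 0, 1.5, 3 or 4.5 hr (highest adjusted p per gene 0.124 to 0.169).

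Of mitotic genes, 3 of 34 tested members passed upward and 0 downward (1 with an unadjusted p under 0.05; 8.82%, against 8.81% of all genes; median 0.11; 0 to 6 and 0 with 1 pair left out): the phosphatase CDC25C (0.68 ± 0.14, adjusted p = 0.0274), the spindle checkpoint kinase TTK (0.55 ± 0.12, adjusted p = 0.0309) and the kinesin KIF2C (0.34 ± 0.08, adjusted p = 0.0356). Of DNA replication and G1/S genes, 3 of 35 tested members passed upward and 2 downward (8.57% and 5.71%, against 8.81% and 7.08% of all genes). The median was 0.02, and 0 to 3 passed upward and 0 to 3 downward with 1 pair left out. CDC6, a licensing factor, was higher (0.86 ± 0.12, adjusted p = 0.00984), and SKP2, the subunit that targets p27 for degradation (-0.84 ± 0.12, adjusted p = 0.0101), and cyclin D1, CCND1 (-0.36 ± 0.09, adjusted p = 0.0366), were lower. SKP2 read 1358, 1251, 933 and 999.8 in tunicamycin cells, against 1824, 2262, 1946 and 2033 in control cells, without overlap. No longer past the test were CDC6 without the pair at 3 hr, SKP2 without the pair at 1.5 or 3 hr, CDC25C, TTK, KIF2C and CCND1 without the pair at 1.5, 3 or 4.5 hr (highest adjusted p per gene 0.072 to 0.15).

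Of autophagy and lysosome genes, 3 of 31 tested members passed upward and 2 downward (9.68% and 6.45%, against 8.81% and 7.08% of all genes). The median was -0.04, and 0 to 4 passed upward and 0 to 2 downward with 1 pair left out. The higher ones were ATG12 (0.67 ± 0.08, adjusted p = 0.00648), ATG14 (0.60 ± 0.09, adjusted p = 0.0122) and MAP1LC3B, which encodes LC3B (0.66 ± 0.09, adjusted p = 0.00985). Of NRF2 and antioxidant genes, 3 of 22 tested members passed upward and 2 downward (13.6% and 9.09%, median -0.10). With 1 pair left out, 0 to 3 passed upward and 0 to 1 downward. BACH1, a repressor of NRF2 targets (0.72 ± 0.09, adjusted p = 0.00914), and GCLC, which makes the glutathione precursor (0.54 ± 0.09, adjusted p = 0.0142), were higher. Of cytosolic heat shock genes, 1 of 18 tested members passed upward and 2 downward (5.56% and 11.1%, median -0.03). With 1 pair left out, 1 to 2 passed upward and 0 to 2 downward. ZFAND2A (AIRAP), a proteasome-binding protein, read 1168, 1266, 1336 and 1589 in tunicamycin cells, against 547, 424, 342 and 417 in control cells, without overlap (1.64 ± 0.15, adjusted p = 0.00317), and the small heat shock protein CRYAB (-0.62 ± 0.07, adjusted p = 0.00627) and DNAJB4 (-0.54 ± 0.14, adjusted p = 0.0432) were lower. Of HIF targets, 6 of 30 tested members passed upward and 2 downward (20% and 6.67%). Their median was 0.00, a sign that turned when arrays were centred on ribosomal proteins. With 1 pair left out, 1 to 4 passed upward and 0 to 4 downward. The demethylase KDM3A (0.86 ± 0.10, adjusted p = 0.00748) and hexokinase HK2 (0.56 ± 0.07, adjusted p = 0.00914) were higher. Of 2 other probe sets of HK2, 1 gave the opposite sign. 2 other probe sets of ATG12 above the filter differed by 0.17 to 0.50, and the other probe set of BACH1 by 0.26. The call of ZFAND2A held when each pair was left out in turn. Calls were lost for ATG12, MAP1LC3B, CRYAB and KDM3A without the pair at 3 hr, for BACH1 and HK2 without the pair at 1.5 or 3 hr, for ATG14, GCLC and DNAJB4 without the pair at 1.5, 3 or 4.5 hr (highest adjusted p per gene 0.0583 to 0.161).

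Differences grew with time in DRB for most called genes. Of the 1275 higher genes, 1116 (87.5%) had a larger difference at 4.5 hr than at 0 hr, and of the 1025 lower genes, 760 (74.1%) did, against 62.1% of all genes by absolute size. The median log2 difference of the higher genes was 0.36, 0.56, 0.77 and 0.87 from 0 to 4.5 hr, and that of the lower genes -0.32, -0.41, -0.57 and -0.46. The standard deviation of the difference over all genes also grew, being 0.291, 0.362, 0.477 and 0.488, and its part in this pattern was not tested. HSPA5 (1.95, 1.91, 1.86 and 1.90) kept a steady difference. XBP1, TIFA and JAG1 (0.75, 1.11, 2.12 and 2.73) grew, and DDIT4, SESN2, EGR1 and DDIT3 (4.64, 4.79, 3.89 and 2.51) shrank. Each time has 1 pair of arrays, so no single time was tested.

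**Figure D5:**
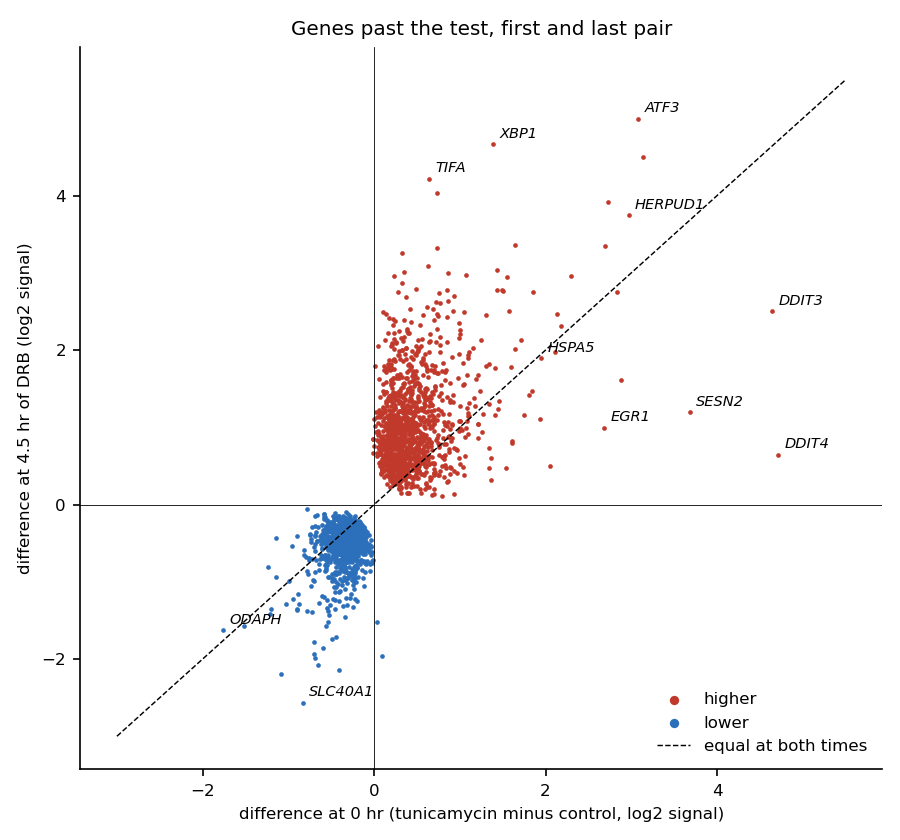
Paired log2 difference at 4.5 hr (vertical) against that at 0 hr (horizontal) for each called gene, with the diagonal of equal difference. XBP1 and TIFA lie far above the diagonal, DDIT4 far below it, and HSPA5 on it.

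Tunicamycin cells were compared with hypoxic and emetine-treated cells in a fit of all 20 arrays, with DRB time as a factor. The control levels do not enter these contrasts, but the control arrays enter the estimate of the spread and of the time effect. Tunicamycin differed from hypoxia in 5512 genes (38.1%; 18.1% higher and 20% lower) and from emetine in 8073 (55.8%; 29.4% higher and 26.3% lower). With only the 8 arrays of the 2 conditions the counts were 4483 and 7285. Without the arrays at 3 hr the count against hypoxia was 3429. Both contrasts and the one with control share the tunicamycin arrays. HSPA5 was higher than in hypoxia (1.82 ± 0.08, adjusted p = 1.74e-09) and in emetine (1.71 ± 0.08, adjusted p = 5.18e-10), with signals of 3569, 3949, 4754 and 4289.6 in hypoxia and 4135, 4033, 4801 and 4903 in emetine. HERPUD1 exceeded hypoxia by 3.61 ± 0.17, adjusted p = 1.91e-09, and emetine by 2.80 ± 0.17, adjusted p = 4.44e-09. ER chaperones had 14 of 36 members higher and 7 lower than in hypoxia, and 20 higher and 5 lower than in emetine. Synthetases were higher in 14 of 18 members against hypoxia and 17 against emetine, and none was lower.

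DDIT3 was higher in tunicamycin cells than in hypoxia (3.64 ± 0.38, adjusted p = 4.2e-06), where it read 180.5, 109.8, 133 and 203, and in emetine cells it read 3136, 2659, 2958 and 3069 (-0.64 ± 0.38, adjusted p = 0.158). PTGS2 was higher than in hypoxia (1.39 ± 0.17, adjusted p = 1.53e-05). CXCL8 read 3360.1, 2307, 2508 and 2898 in emetine cells, and the tunicamycin minus emetine difference was -0.83 ± 0.13, adjusted p = 5.22e-05. Against emetine, 29 of 35 immediate early genes were lower and 1 higher (median -2.62), and ATF3 differed by -1.22 ± 0.37, adjusted p = 0.0122. Against hypoxia, 23 of 30 HIF targets were lower and 0 higher (median -1.04), and 18 of 33 ribosome biogenesis genes were higher.

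The lower genes differed in their relation to these stresses. Surface receptors were lower in tunicamycin than in hypoxia for 22 of 36 members and higher for 1, but lower than in emetine for 7 and higher for 16. Matrix genes had 16 of 30 members lower and 2 higher against hypoxia, and 5 lower and 15 higher against emetine. Reported IRE1 substrates were lower than in hypoxia for 6 of 8 and higher for 0, and lower than in emetine for 2 and higher for 1. BLOC1S1 was lower than in hypoxia (-0.71 ± 0.11, adjusted p = 0.000141). In emetine cells it read 498, 449, 494 and 538, and the difference did not pass (-0.19 ± 0.11, adjusted p = 0.158). SPARC differed from hypoxia by -0.32 ± 0.09, adjusted p = 0.0117, and from emetine by -0.03 ± 0.09, adjusted p = 0.763. CD59 was lower than in hypoxia (-1.53 ± 0.20, adjusted p = 3.23e-05), where it read 2762, 2730.0, 2857 and 2996, and its difference from emetine was -1.44 ± 0.20, adjusted p = 2.12e-05, with 2725, 2585, 2569 and 2715 in emetine cells. TGOLN2 was lower than in hypoxia (-1.51 ± 0.17, adjusted p = 1.06e-05), and in emetine cells it read 2103, 2198, 2275 and 2062 (-1.34 ± 0.17, adjusted p = 1.07e-05).

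The median genomic span was 29.7 kb for higher genes and 40.4 kb for lower genes, against 26.9 kb for all genes tested, as a description with no test. Long non-coding RNAs made up 2.59% of higher genes and 4% of lower genes, against 6.84% of all genes. Only annotated spans in the RefSeq table were used.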

How the data were processed

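Total RNA of U2OS cells was converted to biotin-labelled cRNA with an Affymetrix 3' kit, per the labels' protocols. The authors deposited an intensity for each of 54675 probe sets of 20 arrays, linear and made with RMA per the submitters' processing notes. RMA corrects background, normalizes between arrays and summarizes probes, so a change shared by most transcripts is removed and each difference is relative to the array's other transcripts. It gives no detection call, and precision is limited by the number of arrays. Every value column was matched to a sample through the labels.

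Intensities were transformed to log2, and no pseudocount was added. Gene symbols came from the platform annotation and were updated by Entrez identifier; 41097 had 1 symbol, 1801 several and 11777 none, and only those with 1 symbol were used. Each gene took its brightest probe set by the mean of 20 arrays and was tested above the 40th percentile (log2 4.70), 14478 in all. Probe sets ending in _s_at or _x_at may read several transcripts. limma 3.58.1 in R 4.3.3 (lmFit, eBayes) was fitted to the 8 arrays with DRB time as a factor (3 residual and 3.86 prior degrees of freedom). Contrasts with hypoxia and emetine came from 20 arrays with DRB time and condition as additive terms. P-values were adjusted by Benjamini-Hochberg over all genes tested. The pairing is given by the sampling time in the labels, and deviations from the group means correlated between arrays of one time over genes (r = 0.781, 0.477, 0.552 and 0.720 from 0 to 4.5 hr).

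The 33 gene lists (988 entries, 947 genes, 842 tested) and the comparison itself were chosen with earlier results of these data known, and lists were counted, not tested. Named genes were the 15 highest (outside the chaperone, degradation, sensor and integrated stress lists) and 20 lowest mean differences past the threshold with 1 sign in 4 pairs, the 3 members past the threshold with the largest moderated statistic of each list, and HSPA5, HERPUD1, DDIT3, DDIT4, XBP1, ATF4, ATF3, DPAGT1 and GAPDH. A gene that this rule names is not reported here. Promoter sequences are RefSeq's, GRCh38.p14; 11527 of the tested genes matched by symbol. Alternatives changed scaling, filter, probe set, pseudocount, variance model, time block and arrays. UPF1-depleted arrays entered only the fit of 20 arrays.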

Additional observations from a re-analysis of the deposited data

Results flagged for a closer look

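Within the 4 paired log2 differences of each gene named by the rule, 6 of 122 genes had a pair far from the other 3 by Dixon's criterion for 4 values. Chance alone gives such a pair in about 1 in 20 sets. TSLP differed by 3.92 at 4.5 hr, against 2.50 to 2.73 at the other times. NFIL3 differed by 1.64 at 0 hr, against 3.15 to 3.38 later. KDM3A differed by 1.21 at 4.5 hr, against 0.71 to 0.79, and HK2 by 0.68 at 4.5 hr, against 0.52 to 0.53. ALG1 differed by -0.79 at 3 hr, against -0.47 to -0.41. BMP4 differed by -0.65 at 3 hr, against -0.99 to -0.98. Each of these values comes from 1 tunicamycin and 1 control array.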

How the results depend on the processing

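The time block and single pairs moved the counts most. With no replicate block, 311 genes passed between tunicamycin and control cells (196 higher, 115 lower), with 62 calls over the gene lists in place of 203. Leaving out 1 time, the totals ran from 96 to 2742 (78 to 1604 higher, 18 to 1138 lower) and the list calls from 35 to 228. With all 20 arrays in the fit, 1663 genes were lower. Between tunicamycin and hypoxia, 3430 passed with no replicate block (1633 higher, 1797 lower) and 3429 to 5749 without 1 time (1677 to 2738 higher, 1752 to 3011 lower). Between tunicamycin and emetine, 2795 were higher with no replicate block. The cause of these shifts was not tested. Under the other settings the counts stayed within 1.5 times of the reported ones.

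Of the 127 named genes, 64 lost their call with no replicate block and 3, 62, 85 and 36 without the times 0, 1.5, 3 and 4.5 hr, all with the same direction. With the median of a gene's probe sets 14 lost it, and SLC38A10 (0.19) and HK2 (-0.050) reversed. No other alternative reversed a named gene. Of 123 named genes past the threshold, 72 had other probe sets above the filter, in 68 all had the same sign and in 33 at least 1 gave under 50% of the reported difference or the opposite sign. Signals around the filter value carry no detection call.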
